A study of Mus musculus with 4 samples.

Results

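The stretch of chromosome 17 beside Efna5, the gene of the cell surface ligand ephrin-A5, was described in the replication profile of mouse embryonic stem cells. It covers 161 windows of 100 kb placed every 25 kb, from 60000001 to 64100000 in GRCm38, of 109033 windows in the table. The stretch was chosen by the polarity of these same libraries: a rise of the profile between 61.85 and 62.15 Mb in wild-type (WT) cells looked nearly absent in cells without Snf2h. The genotype difference at this place is therefore given as a description, and no test of it is used as support. The assay was TrAEL-seq, in which 3′ ends left free on either DNA strand are captured and sequenced. There were 2 WT and 2 Snf2h knockout (KO) libraries of embryonic stem cells of the line 129S6/SvEvTac, all grown in serum with LIF on gelatin, and the labels name no allele, clone or treatment. Each window holds a polarity, the signed strand imbalance of captured ends in percentage points, bounded at -50 and 50. Every library had a value in all 161 windows of the stretch (0 windows without a value), whereas 7641 to 8249 windows were without a value in the whole table.

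Replication forks leave origins in both directions, and TrAEL-seq ends lie mostly on the strand that the direction of the fork sets. Along a chromosome, polarity therefore turns steeply in a given sense where forks set out and turns in the opposite sense where they meet. The labels and headers do not say which strand is counted as positive, so rises and falls are not assigned to initiation or termination here. Snf2h is the motor ATPase of the ISWI complexes, which slide and space nucleosomes. Ephrin-A5 is a membrane-anchored ligand of Eph receptor kinases and is best known for guiding growing axons.

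The rise lies where genes are few, and is called the desert rise here. The stretch holds 31 RefSeq genes, of which 4 are protein-coding, 11 are lncRNAs and 14 are pseudogenes. A median of 25.0 protein-coding genes was found in autosomal stretches of the same length (4.1 Mb, moved in steps over the autosomes), and 6.81% of 2334 such stretches held as few. Nudt12, the nearest protein-coding gene before the rise, ends 2.84 Mb away, and the 3′ end of Efna5 lies 453.0 kb after it. The gap between them, 3.59 Mb, ranks 13 among 18556 gaps between neighbouring protein-coding genes, whose median is 16.1 kb. Within 0.25 Mb of the rise RefSeq lists only the lncRNA gene Gm52291 (62059832 to 62060950), which lies inside it, and the pseudogene Gm4518 (61780735 to 61781670).

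The other 3 rises of the stretch in WT each span the start of a protein-coding gene. To show what lies at those places, the RefSeq promoters (GRCm38.p6, 250 bases before to 50 after the listed start) of these genes are given 5′ to 3′ on the gene's strand, with each CpG dinucleotide in capitals.
Efna5, chr17:62881268-62881567, minus strand: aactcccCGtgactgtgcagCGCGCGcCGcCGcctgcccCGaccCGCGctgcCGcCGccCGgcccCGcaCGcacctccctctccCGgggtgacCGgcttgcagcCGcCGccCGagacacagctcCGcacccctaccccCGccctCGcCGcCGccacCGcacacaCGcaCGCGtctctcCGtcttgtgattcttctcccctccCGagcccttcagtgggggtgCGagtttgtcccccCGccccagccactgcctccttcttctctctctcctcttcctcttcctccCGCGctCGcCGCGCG
Fbxl17, chr17:63500531-63500830, minus strand: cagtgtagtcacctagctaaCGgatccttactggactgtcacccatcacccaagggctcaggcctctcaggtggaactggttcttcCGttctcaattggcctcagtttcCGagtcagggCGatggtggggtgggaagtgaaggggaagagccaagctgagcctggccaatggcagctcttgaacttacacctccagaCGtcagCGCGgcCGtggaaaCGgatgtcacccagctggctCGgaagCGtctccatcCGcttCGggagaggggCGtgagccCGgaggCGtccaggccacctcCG
Fer, chr17:63863731-63864030, plus strand: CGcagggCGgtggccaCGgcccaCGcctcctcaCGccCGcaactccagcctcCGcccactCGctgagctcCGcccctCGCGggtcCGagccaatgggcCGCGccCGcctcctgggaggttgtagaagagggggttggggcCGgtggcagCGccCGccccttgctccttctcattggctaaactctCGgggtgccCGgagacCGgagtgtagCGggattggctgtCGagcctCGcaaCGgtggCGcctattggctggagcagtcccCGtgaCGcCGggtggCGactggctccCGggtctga
The Efna5 promoter holds 38 CpG and the Fer promoter 31, numbers reached by 4.95% and 10.6% of the 32850 promoters of the table. The Fbxl17 promoter holds 17 (31.4% of promoters hold as many), and the median is 7 CpG over all promoters and 13 CpG over the 21262 protein-coding ones. GGGCGG, searched on both strands with overlaps allowed, occurs 4 times in the Efna5 promoter, 4 times in the Fer promoter and 0 times in that of Fbxl17, and 35.7% of all promoters and 46.2% of protein-coding ones hold it. RefSeq lists 3 promoters for Fer, of which 1 is shown. These genes were chosen for printing after their profiles had been seen.

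In WT the profile climbed over the desert from well below 0 to above it. Over a running mean of 5 windows, polarity between 61.85 and 62.15 Mb rose by 37.9 points in WT replicate 1 and by 34.4 points in WT replicate 2. In KO replicate 1 the change was 21.1 points, and in KO replicate 2 it was 1.01 points. The WT libraries lay close together and above both KO libraries, and the KO libraries stood far apart. Mean rise was 36.2 ± 2.42 points for WT and 11.1 ± 14.2 points for KO (SD, n = 2 each). KO minus WT was -25.1 points, and the pooled SD of replicates was 10.2 points. The description of the rise as nearly absent thus held for KO replicate 2, with 2.80% of the mean WT rise, whereas KO replicate 1 kept 58.5%. Without KO replicate 2 the difference was -15.0 points, and without KO replicate 1 it was -35.1 points.

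**Figure D1:**
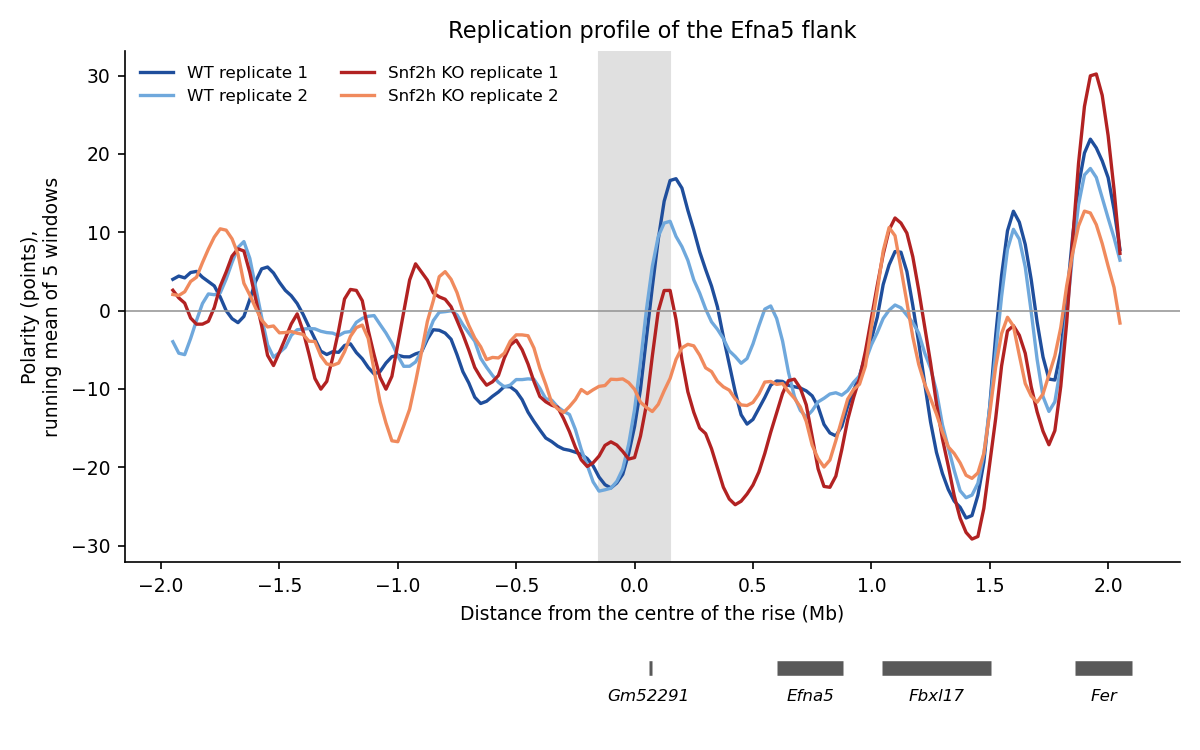
Running mean of polarity over 5 windows (points, vertical axis) against distance from the centre of the rise (Mb, horizontal axis) in each of the 4 libraries, with gene intervals below and the interval of the rise shaded. The WT lines climb through 0 in the shaded interval, KO replicate 1 reaches only 2.57 points there and KO replicate 2 stays below 0.

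Libraries differ in the overall amplitude of their profiles, so each was also divided by its SD over 23672 autosomal windows that do not overlap. These SDs were 14.6 and 12.8 points for WT and 19.5 and 14.5 points in KO. On that scale the rise was 2.59 and 2.68 SD in WT, 1.09 SD in KO replicate 1 and 0.0696 SD in KO replicate 2. The WT libraries were again alike, and both KO libraries lay lower. KO replicate 1 has the largest amplitude of all libraries, and its share of the mean WT rise fell to 41.2% once amplitude was divided out.

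Both ends of the rise differed. At its foot, in the window at 61850001 to 61950000, polarity was -24.4 and -23.7 points for WT, -16.7 points for KO replicate 1 and -7.61 points for KO replicate 2. The WT foot was thus the deepest. At its head, in the window at 62050001 to 62150000, polarity was 13.5 and 15.2 points in WT, 1.54 points for KO replicate 1 and -13.7 points for KO replicate 2. The difference of -20.4 points in that window was the largest of the stretch in either direction. The sign did not split the genotypes there, as KO replicate 1 was just above 0. It was higher in the next window, at 62075001 to 62175000, with 10.7 points. In that window WT had 15.6 and 12.1 points and KO replicate 2 had -12.2 points.

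KO replicate 1 showed a short and low version of the WT peak. Its running mean rose by 21.5 points between 61.975 and 62.15 Mb, over 175 kb, whereas the WT libraries rose over 275 and 300 kb. The running mean crossed 0 at 62.064 and 62.050 Mb in WT and at 62.101 Mb in KO replicate 1. It stayed above 0 for 289.5 and 253.4 kb in WT and for 66.6 kb in KO replicate 1. In KO replicate 2 it did not cross 0 at all near the rise. There the running mean was below 0 without a break from 61.275 to 63.0 Mb, over 1725 kb. Gm52291, the lncRNA gene in the rise, lies between the places where the WT libraries cross 0. Called in each library alone, the stretch held 4 and 3 rises in WT and 4 rises in either KO library. With a minimum of 2 SD in place of 1 SD there were 3 rises in either WT library and 1 in either KO library.

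**Figure D2:**
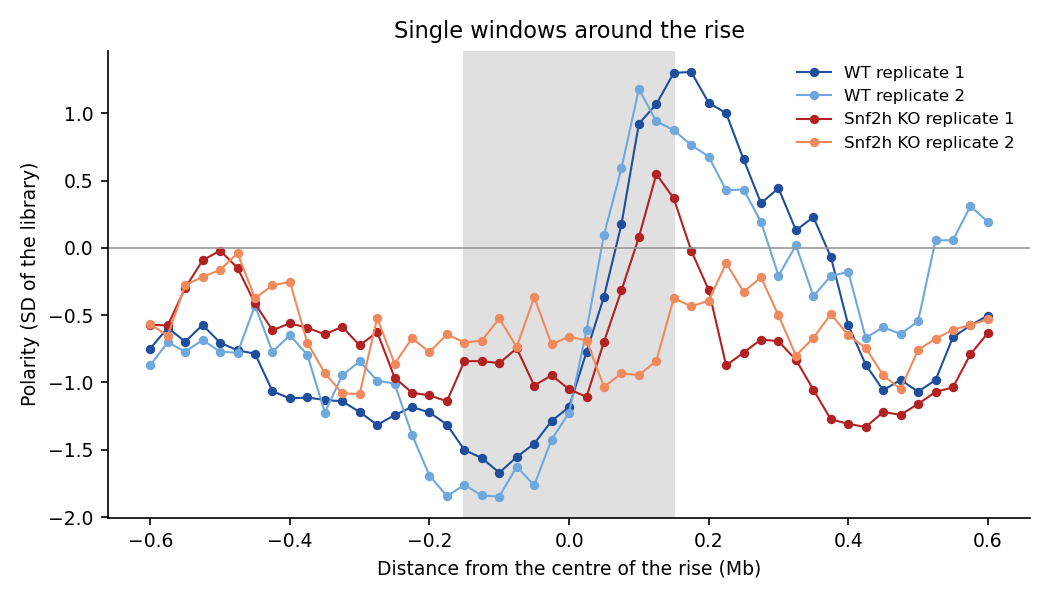
Polarity of single windows in units of the SD of each library (vertical axis) within 0.6 Mb of the centre of the rise (horizontal axis, Mb), with the interval of the rise shaded. Both WT libraries pass above 0 in the interval, KO replicate 1 makes a brief peak and KO replicate 2 remains below 0.

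The size of this loss was set beside all rises of the WT mean profile, called between a local minimum and the next maximum where the running mean rose by at least 1 SD of that profile. At the desert this gave a rise from 61.9 to 62.15 Mb. It measured 39.2 and 34.1 points in WT, 19.3 points for KO replicate 1 and 0.100 points for KO replicate 2. Of 2563 such rises, 8 others lost as much or more in KO (the locus ranked 9), and the median over rises of KO minus WT was 3.14 points. In SD units it ranked 5 of 2569, with a difference of -2.17 SD against a median of -0.222 SD. Both KO libraries lay below both WT libraries in 16% of the rises in points and in 42.4% of those in SD units. Because the rises were called on WT, their WT heights are favoured by the choice, and because the locus was picked for its loss, its rank is a description.

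A stricter count took rises with KO and WT libraries apart and a mean KO rise under 0.25 of the mean WT rise. It held 78 rises in points (3.04%) and 94 in SD units (3.66%). The desert rise was outside it in points, with 26.5% of the WT rise left, and inside it in SD units, with 18.7% left. In points it came inside when WT replicate 2 or KO replicate 1 was left out, and stayed outside without either of the other libraries. With a limit of 0.5 the share was 6.91% in points and 10.3% in SD units, and the locus was inside on both scales. The gap between the KO libraries at the locus, 19.2 points, was above the median gap of 10.4 points between them over all WT rises, and 12.9% of the rises had KO replicate 1 ahead of KO replicate 2 by as much. In SD units the gap was 0.987 SD, reached by 1.64% of the rises.

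**Figure D3:**
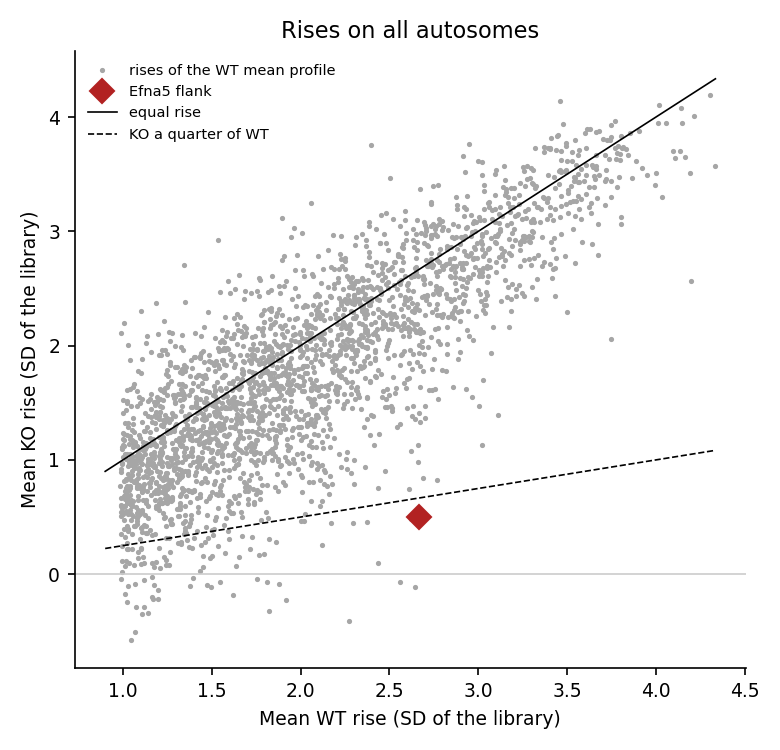
Mean KO rise against mean WT rise, both in SD of the library, for 2569 rises of the WT mean profile on the autosomes. The Efna5 flank (diamond, 2.67 SD in WT and 0.500 SD in KO) lies under the dashed line of 0.25 of the WT rise, where 94 rises with separated libraries lie.

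The difference between the genotypes went on after the rise. In 15 successive overlapping windows, with midpoints from 62.05 to 62.4 Mb, both KO libraries lay below both WT libraries, at a mean of -9.31 points in KO and 5.97 points in WT. KO lay lower in this way in 22.5% of all windows that do not overlap. This was the longest run of separated windows in the stretch. Over the 18 windows between the rise and Efna5, mean polarity was -1.76 and -0.190 points for WT, -17.6 points for KO replicate 1 and -8.46 points for KO replicate 2. Here KO replicate 1 was the lower of the KO libraries, as at the foot of the rise, whereas at its head it was the higher. The difference was -12.1 points, with a replicate SD of 4.65 points, and it was -7.49 points without KO replicate 1. From the foot of the rise to the start site of Efna5, 12 and 15 of 42 windows were above 0 in WT, 3 in KO replicate 1 and 0 in KO replicate 2.

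Before the rise the difference went both ways. Over the 40 windows of the preceding 1 Mb, mean polarity was -10.2 and -7.15 points for WT and -6.49 and -6.51 points in KO, so that both KO libraries were above both WT libraries on average. Within that span, KO minus WT was -9.40 points over 4 successive separated windows with midpoints from 60.925 to 61.0 Mb and 7.20 points over 4 such windows from 61.45 to 61.525 Mb. Farther back in the desert, over 32 windows, the averages of all libraries were near 0, with 0.649 and -1.12 points for WT and -0.730 and 0.498 points in KO, so that the genotypes overlapped. Single windows there ranged more widely, from -15.6 points in KO replicate 1 to 13.3 points in WT replicate 2. Between 61.0 and 61.2 Mb KO replicate 2 had a called rise of 21.7 points, and the other 3 libraries had none before the desert rise. The running mean of KO replicate 1 also climbed nearby, from -10.0 points at 60.95 Mb to 5.96 points at 61.075 Mb. This was short of the minimum of 1 SD of that library.

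**Figure D4:**
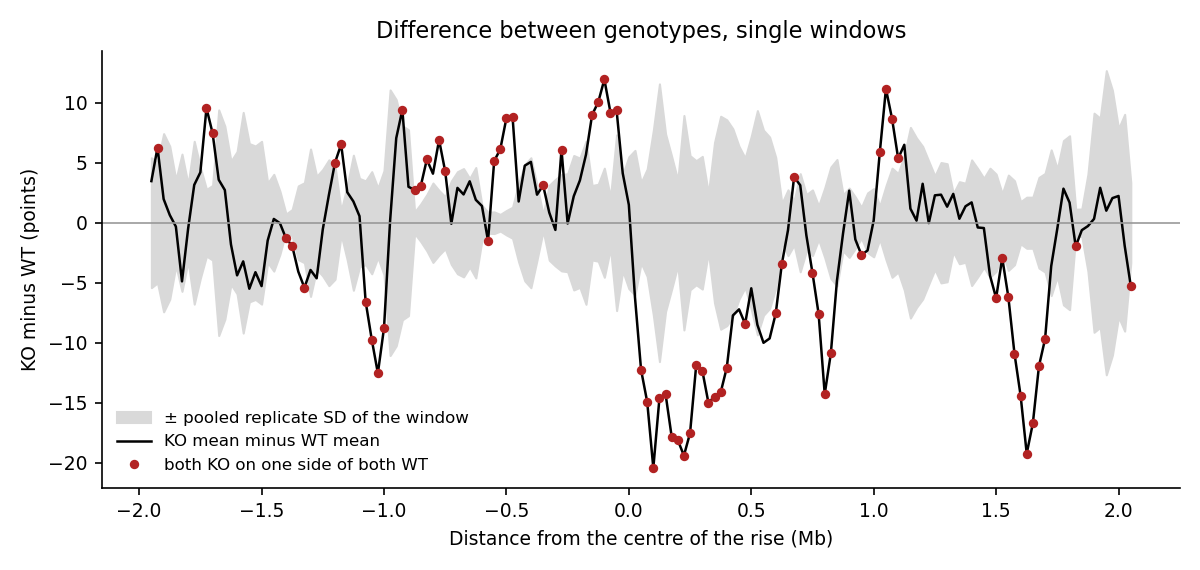
KO mean minus WT mean of polarity in single windows (points, vertical axis) against distance from the centre of the rise (Mb, horizontal axis). Grey marks the pooled replicate SD of each window on either side of 0, and dots mark windows where the KO libraries lie together above or below the WT libraries, the longest run of which is the 15 windows after the centre.

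Efna5 (62602957 to 62881317, minus strand, 278.4 kb) lay in a part of the profile below 0 in all libraries. Over the 11 windows with midpoints in the gene, mean polarity was -12.3 and -11.1 points for WT and -15.6 and -15.2 points in KO. Both KO libraries were lower, by 3.70 points against a replicate SD of 0.633 points. In SD units the genotypes overlapped, at -0.842 and -0.865 for WT against -0.801 and -1.05 for KO.

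The start of Efna5 lies in a rise of its own from 62.85 to 63.1 Mb, and this rise was higher in KO. It measured 23.5 and 11.2 points for WT and 33.0 and 26.2 points in KO. Both KO libraries were above both WT libraries, as in 27.2% of the rises of the WT mean profile in points. Means were 17.4 ± 8.72 points for WT and 29.6 ± 4.80 points for KO (SD, n = 2 each). They differed by 12.2 points, with a replicate SD of 7.04 points. In SD units WT had 1.61 and 0.873 and KO had 1.69 and 1.80, still with both KO libraries ahead, as in 14.1% of rises on that scale. Without WT replicate 2, whose rise was below 1 SD and was not called in that library alone, the difference was 6.03 points, and without WT replicate 1 it was 18.4 points. KO was thus lower at the desert rise and higher at the rise over the Efna5 start.

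Fbxl17, which encodes a substrate receptor of the SCF ubiquitin ligase that controls the pairing of BTB proteins, is the next protein-coding gene (63045949 to 63504184). The rise over its start, from 63.4 to 63.6 Mb, was as tall in WT as the desert rise, with 39.2 and 34.3 points. In KO it was 26.4 and 19.0 points, and both KO libraries lay below both WT libraries, as in 16% of the rises in points and 42.4% in SD units. KO minus WT was -14.0 points, with a replicate SD of 4.41 points, and KO kept 61.9% of the WT rise. In SD units the WT libraries had 2.68 and 2.67 and the KO libraries 1.36 and 1.31. The KO libraries were close together here, in contrast to the desert rise. Both genotypes started from a similar depth, at -25.2 points for WT and -24.7 points in KO, and differed at the top, at 11.5 points for WT and -1.96 points in KO. Over the 19 windows with midpoints in the gene, polarity was -11.6 and -11.1 points for WT and -9.71 and -9.21 points for KO, with both KO libraries nearer to 0. In 9 successive windows, with midpoints from 63.5 to 63.7 Mb, which overlap, both KO libraries were below both WT libraries, as in 22.5% of all windows that do not overlap.

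Fer encodes a non-receptor tyrosine kinase, and the rise over its start, from 63.75 to 63.925 Mb, did not separate the genotypes. It measured 30.6 and 31.0 points in WT, 47.1 points for KO replicate 1 and 20.7 points for KO replicate 2. The WT libraries lay between the KO libraries. The difference of 3.05 points was below the replicate SD of 13.2 points and was -10.2 points without KO replicate 1 and 16.3 points without KO replicate 2, and in SD units it was -0.334 SD, with 2.09 and 2.42 SD in WT and 2.42 and 1.42 SD in KO. The fourth protein-coding gene of the stretch, Gm41607 (63271339 to 63297797), lies inside the Fbxl17 interval, where the profile falls in all libraries.

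**Figure D5:**
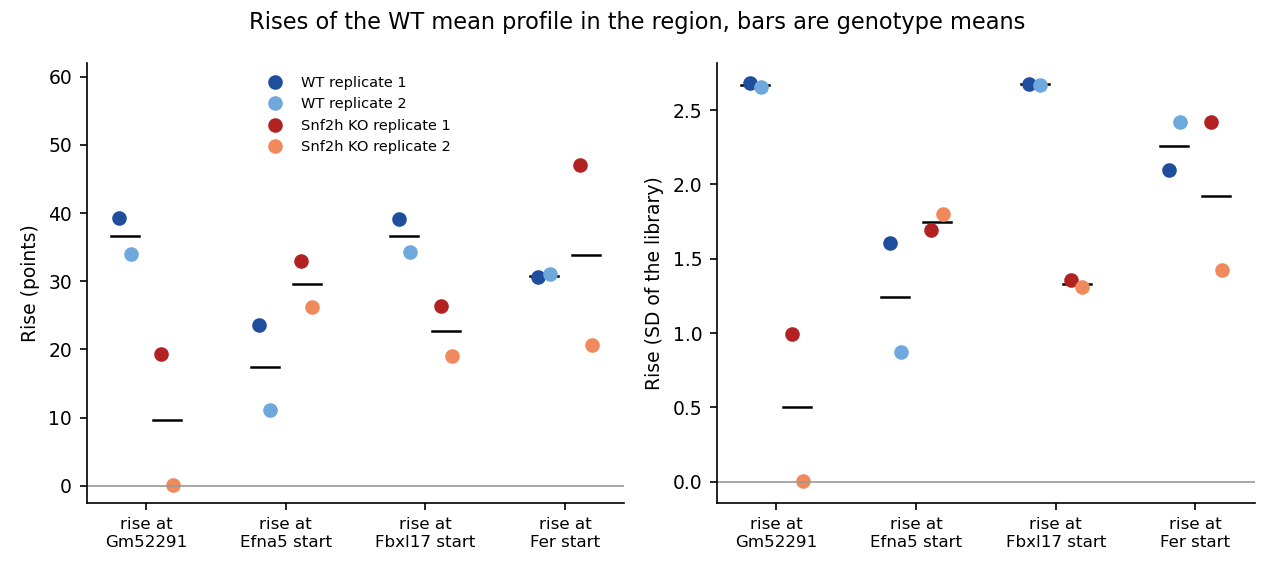
Height of the 4 rises of the WT mean profile in the stretch in each library, in points (left) and in SD of the library (right), with bars at the genotype means. At Gm52291 and at the Fbxl17 start both KO libraries lie below both WT libraries, at the Efna5 start above them, and at the Fer start they overlap.

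Gene starts were counted in all rises of the WT mean profile to place the desert rise. A protein-coding start lay in 75.3% of the 2563 rises, and in 3 of the 4 rises of this stretch. Of the 177 rises with a mean KO rise under 0.5 of WT in points and separated libraries, to which the desert rise belongs, 43.5% held such a start, and of the other 2386 rises 77.7% did. The 177 rises were also shorter, with a median of 175.0 kb against 225.0 kb, and the part of length in this difference was not tested.

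The similarity of libraries was lower over this stretch than over the genome. Over the 161 windows, which overlap and are not independent, Pearson's r was 0.859 between the WT libraries, 0.749 between the KO libraries and 0.606 to 0.738 between genotypes. Over the autosomal windows that do not overlap it was 0.941, 0.912 and 0.865 to 0.917. Values also spread less in the stretch, with SDs of 11.8 and 9.84 points for WT and 12.8 and 8.95 points in KO. Over the autosomes the SDs were 14.6 and 12.8 points for WT and 19.5 and 14.5 points in KO. The part of this spread in the lower r was not tested. Within 0.5 Mb of the rise (53 windows), r was 0.878 between the WT libraries, 0.283 between the KO libraries and 0.0941 to 0.506 between genotypes. The KO libraries thus differed from each other as well as from WT there. The SD of each value minus the mean of its neighbours, which takes in narrow peaks of the profile as well as noise, was 8.43 and 8.23 points in WT, 9.94 points for KO replicate 1 and 7.79 points for KO replicate 2 in this stretch. Over the autosomes it was 8.09 and 7.52 points in WT, 10.6 points for KO replicate 1 and 9.18 points for KO replicate 2. Divided by the SD of each library, the autosomal values were 0.553 and 0.586 in WT, 0.543 for KO replicate 1 and 0.632 for KO replicate 2. KO replicate 2, which has the lowest rise, had the most windows without a value in the table (8249) and the fewest distinct values (9486, against 28563, 23408 and 17097 in WT replicates 1 and 2 and KO replicate 1), and their part in the result was not tested. Read depth is unknown.

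In the fit across all windows, no window of the stretch was called. With limma on 23672 windows that do not overlap, 13 were called at an adjusted p-value threshold of 0.05 (0.0549%), and 0 of the 41 windows of the stretch were. Without adjustment, 6 of the 41 windows and 12.2% of all windows had a p-value under 0.05. Because the stretch was picked for this contrast, nothing is read from the counts in it. KO and WT libraries were apart in 17 of the 41 windows (41.5%, and 44.7% of all windows), with KO lower in 10 (22.5% of all windows) and higher in 7 (22.2%). In SD units they were apart in 53.7% of the 41 windows and in 44.8% of all windows. On that scale limma called 90 of all windows (0.38%) and 0 in the stretch. In points, the stretch had 4 calls without KO replicate 1 (5.79% of all windows were called) and 8 without KO replicate 2 (20.2% of all windows), where the spread is that of the remaining pair of libraries.

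The 2 Mb on either side, which the choice of the stretch did not use, were tested in the same fit. Of 40 windows, limma called 0 (0.0549% of all windows), with a lowest adjusted p-value of 0.333. Without adjustment, 3 of the 40 had a p-value under 0.05, as did 12.2% of all windows. KO and WT libraries were apart in 11 of them (27.5%), against 44.7% of all windows. Without KO replicate 1 limma called 4 of the 40 (5.79% of all windows), and without KO replicate 2 it called 5 (20.2% of all windows).

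Other genes of the Eph and ephrin family were examined at the windows that hold their starts. Of 21 listed genes other than Efna5, 19 had a start window in the fit, and Efnb1, on X, and Efnb3 were not used. These starts fell in 18 windows, as the ligand genes Efna3 and Efna4 share a window. With limma, 0 of 19 genes were called higher and 0 lower in KO, and without adjustment 1 had a p-value under 0.05, as did 12.2% of all windows. Without KO replicate 1 limma made 3 calls at these starts (5.79% of all windows), and without KO replicate 2 it made 2 (20.2% of all windows). Polarity was lower in KO at 15 of the 19 genes, with Efna3 and Efna4 both counted, and higher at 4. The share of all windows with a lower KO mean was not counted, so nothing is read from this split. KO and WT libraries were apart at 8 of the 19 (44.7% of all windows were apart). The median difference was -2.79 points, against -0.0598 points over all windows, and the median size was 3.06 points, against 4.44 points.

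The largest differences in the family were at 2 receptors and a ligand. At the start of Epha5, a receptor of the ephrin-A class, polarity was 6.77 and 9.51 points for WT and 3.54 and -9.72 points in KO (limma, difference -11.2 points, SE 4.96, adjusted p = 0.369). At Ephb6, a receptor whose kinase domain is inactive, it was 19.7 and 17.1 points for WT and 18.1 and -2.99 points in KO (limma, difference -10.8 points, SE 5.60, adjusted p = 0.45). At Efnb2, a transmembrane ligand needed for artery formation, it was 7.36 and 5.46 points for WT and 3.57 and -8.06 points in KO (limma, difference -8.66 points, SE 4.85, adjusted p = 0.481). In all 3 the low value was that of KO replicate 2, and at Ephb6 KO replicate 1 lay between the WT libraries. At the window of the Efna5 start itself, polarity was -19.6 and -10.6 points for WT and -22.7 and -17.2 points in KO, so the genotypes overlapped.

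Rises elsewhere with a like pattern were found by the distance between their heights in the 4 libraries, in SD units, and those of the desert rise. The nearest was on chromosome 12 from 27.275 to 27.625 Mb (distance 0.492 SD). Its midpoint lay 107.3 kb from Sox11, a gene of a neural transcription factor. This rise measured 2.30 and 2.45 SD in WT and 0.798 and 0.112 SD in KO. The next was on chromosome 6 from 102.625 to 102.875 Mb, with 2.72 and 2.82 SD in WT and 1.27 and 0.384 SD in KO. Its midpoint lay 185.4 kb from Cntn3, which encodes a neural adhesion molecule. Another lay on chromosome 14 from 53.475 to 53.8 Mb (nearest protein-coding gene Dad1, 598 kb from the midpoint). The others lay on chromosome 7 from 51.45 to 52.1 Mb (Fancf, 85.6 kb from the midpoint) and on chromosome 1 from 22.2 to 22.625 Mb (overlapping Rims1). As these distances are from midpoints, Sox11 and Fancf reach into their rises. In all 5 rises, as at the desert, KO replicate 2 had the smaller rise of the KO libraries. These rises were selected for their likeness, so their pattern is not further evidence.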

How the data were processed

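TrAEL-seq profiles of 2 WT and 2 Snf2h KO libraries were used, grouped by the labels. Per the submitters' processing notes and the file headers, reads were trimmed with Trim Galore 0.6.5, aligned with Bowtie2 2.4.1 to GRCm38 with an rRNA sequence and deduplicated. The deposited values are scores, here called polarity, between -50 and 50; the program, the positive strand and any read minimum are not given in the sources used here. The sequencing index given for WT replicate 2 is not the same in the label and the column name. The replicates were duplicate cultures, per the series' design text.

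Windows of full length on 19 autosomes with a value in all libraries were kept (94694 overlapping, 23672 not overlapping). The running mean spans 5 windows, and window positions are midpoints. The test of windows was that of limma 3.58.1, run under R 4.3.3 (lmFit, eBayes, Benjamini-Hochberg adjustment, threshold 0.05), which was checked on simulated data. Python 3.11.15, numpy 2.4.6 and pandas 2.3.3 did the rest. A permutation test over 2 against 2 libraries cannot give a p-value under 0.333, so none is reported.

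Genes and promoters are RefSeq's for GRCm38.p6. The members and lists were chosen with earlier results of these data known. Named were Efna5, protein-coding genes of the stretch, genes within 0.25 Mb of the rise, the 3 Eph or ephrin genes with the largest differences when none was called, and the 5 rises most alike. Promoters of Fbxl17 and Fer were added after their profiles were seen. Alternatives were other scales, running means, minimum rises, window sets, limma options, a replicate block and omission of each library. For single rises and stretches other than the desert rise and the Efna5 gene, omission was added after seeing the data.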

Additional observations from a re-analysis of the deposited data

How the results depend on the processing

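The difference in the desert rise stayed negative under all 11 alternatives, between -15.0 points without KO replicate 2 and -35.1 points without KO replicate 1; it was -2.06 SD after division by the SD of each library and -1.01 after division by the mean rise. Over Efna5 the difference was -0.0716 SD in SD units and -4.43 points over windows wholly inside the gene. The number of called rises in the stretch, 0.5 more per library in KO, came to 1 over 3 windows of smoothing, -1 over 9 windows, -2 with a minimum of 2 SD (where both WT libraries had more rises than both KO libraries), and 0 to 1 on omission of a library. Rises lost on all autosomes, 78, were 48 with a running mean of 9 windows, 237 with a minimum of 0.5 SD, 6 with a minimum of 2 SD, 177 with a limit of 0.5, and 71 to 141 on omission of a library.

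Windows called by limma on all autosomes, 13, were 90 in SD units, 0 on an atanh scale (2655 at an unadjusted p-value under 0.05), 72 over overlapping windows, 302 with the trend and robust options, 54 at a threshold of 0.1 and 7 to 4790 on omission of a library. In the stretch, 0 became 2 with the trend and robust options and 0 to 8 on omission of a library; in the flanks 0 to 5 and at Eph and ephrin starts 0 to 3 on omission. When the replicate block was added, 630 windows passed, 2 of them in the stretch; with the block in SD units it was 654, with 4 in the stretch and 1 at Eph and ephrin starts. The replicate numbers are not said to pair the libraries, and deviations of same-numbered libraries correlated at 0.241 (0.0158 in SD units). For these changes the cause was not tested. Depth is unknown, there are 2 libraries per genotype, and the KO libraries lie farther apart than the WT libraries at this place. The size of the loss is therefore loosely bounded.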
